A study of Mus musculus with 6 samples.

Results

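The genes described here encode the translation initiation factors (eIF) and elongation factors (eEF) that load ribosomes onto mRNA and move them along it. They were taken from the deposited table as the protein-coding genes whose name starts with Eif and a digit, Eef1 or Eef2, without the 4 eIF2-alpha kinase genes Eif2ak1 to Eif2ak4. The rule gave 64 of 54532 genes in the table. Of these, 60 held enough reads to be tested and 4 did not, namely Eef1a2, Eif2s3y, Eif4e1b and Eif4ebp3.

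Polyadenylated RNA was sequenced from wild-type granulosa cells of the mouse ovary, which surround and feed the oocyte, in 2 groups of 3 libraries. The cells of 1 group were cultured with cyclophosphamide, a DNA-alkylating chemotherapy drug, for 24 h, and those of the other group were left untreated. The sample label of the treated cells speaks of intraperitoneal injection, whereas the protocol and the design text have the drug given to adherent cells in culture. Nothing in the labels says that replicates came from separate cultures or animals, so p-values measure only the spread between these libraries, which may be technical.

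Initiation starts when eIF2 carries the initiator tRNA to the small ribosomal subunit, helped by eIF1, eIF1A, eIF3 and eIF5, and when the eIF4 factors recruit that subunit to the cap of the mRNA. The subunit scans for a start codon, eIF5B joins the large subunit, and eEF1 and eEF2 then deliver aminoacyl-tRNA and move the ribosome codon by codon. Cells under stress commonly restrain initiation through phosphorylation of eIF2 or through the eIF4E-binding proteins, and granulosa cells depend on high protein synthesis for hormone production and follicle growth.

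Depth ranged from 16689902 to 17275338 reads in the cyclophosphamide libraries and from 16458385 to 17607586 in the untreated libraries. Levels are FPKM, reads scaled to gene length and to library size, as the authors deposited them. Of 10 granulosa markers 8 were measured. All 10 together summed to 1052 to 1353 FPKM in cyclophosphamide libraries and 2713 to 2865 FPKM in untreated libraries. Amh and Cyp19a1, both granulosa markers, were below the filter. Summed markers of macrophages were at 5.04 to 5.29 FPKM with cyclophosphamide and 1.78 to 1.85 FPKM untreated, and those of oocytes at 2.97 to 3.82 FPKM with cyclophosphamide and 0.609 to 0.939 FPKM untreated. Those of surface epithelium were at 49.5 to 72.4 FPKM with cyclophosphamide and 106 to 119 FPKM untreated. Smooth muscle markers summed to 5.18 to 17.9 FPKM with cyclophosphamide and 80.9 to 91.7 FPKM untreated, and theca and endothelial markers stayed under 1 FPKM in every library. Of the 6 macrophage markers 1 passed the filter, and of the 6 oocyte markers 2 did. The part of these cell types in the results was not tested, and in bulk RNA fewer cells of a type and less RNA per cell cannot be told apart. Cyclophosphamide replicate 1 lay apart from replicates 2 and 3 on the second principal component (4.68% of the variance), and its FPKM summed to 300505, against 277197 to 279748 in the other treated libraries.

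Most factor genes rose by less than 2-fold, and a smaller set fell. With cyclophosphamide 35 of 60 tested members rose and 10 fell (limma, Benjamini-Hochberg adjusted p under 0.05 over 14885 genes), while 33.1% of all genes tested rose and 35.8% fell. The median log2 fold change of the members was 0.29, against -0.02 over all genes tested. At least 2-fold changes were fewer than the background of 10.0% higher and 16.6% lower, with 3 members higher (Eif4ebp1, Eif1 and Eif4enif1) and 2 lower (Eif4e3 and Eef1akmt1). In 38 members all cyclophosphamide libraries lay above all untreated libraries, and in 11 all lay below (35.3% and 37.8% of all genes tested). Under upper-quartile scaling of the libraries 28 members rose and 14 fell. Of the 60 members tested, 42 (70.0%) had their highest treated value in cyclophosphamide replicate 1, a larger share than the 41.9% of all genes tested. With every library rescaled to an equal FPKM sum it was 28 of 60 members (46.7%) and 26.6% of all genes tested. Without cyclophosphamide replicate 1, 33 members rose and 13 fell.

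**Figure D1:**
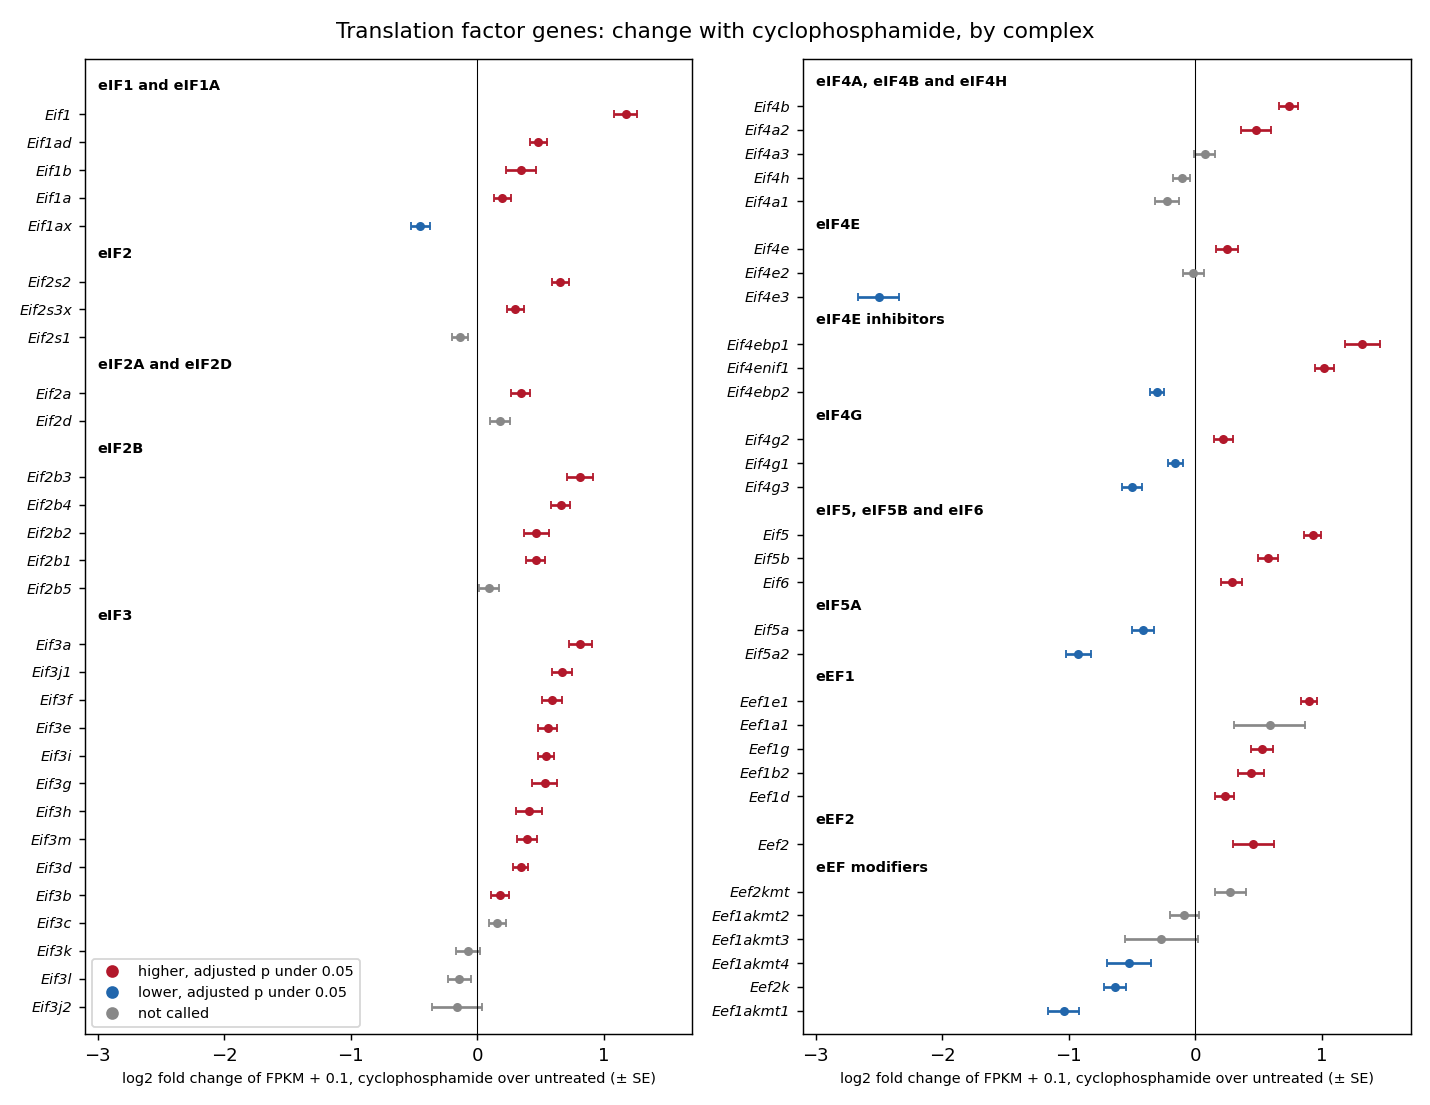
Log2 fold change of FPKM + 0.1, cyclophosphamide over untreated, for the 60 tested factor genes grouped by complex (points, limma estimate; bars, SE; red higher, blue lower, grey not called at an adjusted p of 0.05). Members of eIF2B, eIF3, eIF5, eEF1 and eEF2 lie mostly right of 0, both eIF5A genes lie left, and Eif4e3 lies farthest left at -2.50.

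**Figure D2:**
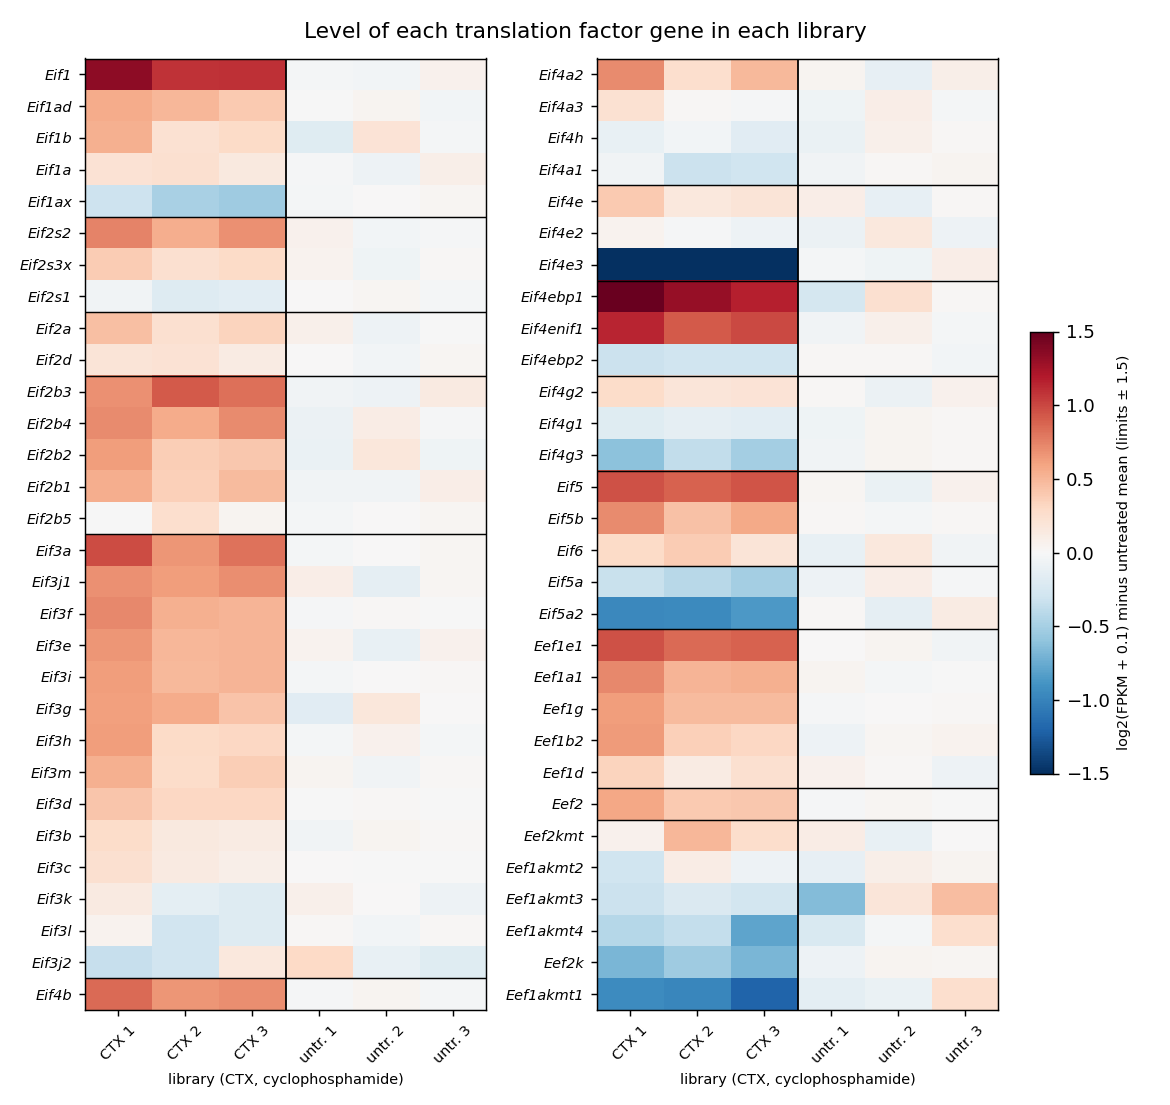
Level of the 60 tested factor genes in each library, as log2(FPKM + 0.1) minus the mean of the 3 untreated libraries; rows follow the complexes, parted by lines, and columns are the 3 cyclophosphamide (CTX) libraries and then the 3 untreated libraries. Cyclophosphamide replicate 1 is the highest of the treated columns in 42 of 60 members, and the colour scale ends at 1.5, so that Eif4e3 lies beyond it.

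Of the 5 genes of the eIF1 and eIF1A group 4 rose and 1 fell, against 33.1% and 35.8% of all genes tested. Eif1 rose most of the group. Eif1 encodes the factor that keeps the scanning ribosome from stopping at poor start codons. It had 282, 235 and 238 FPKM in cyclophosphamide libraries, against 109, 108 and 116 FPKM in untreated libraries, which is 1.17 ± 0.09 on the log2 scale (fold change ± SE; limma, adjusted p = 1.7e-05). Every treated library held more than 2 times the FPKM of every untreated library. Its paralog Eif1b had 27.2, 21.9 and 22.9 FPKM with cyclophosphamide and 16.6, 21.6 and 18.5 FPKM untreated (0.35 ± 0.12 on the log2 scale, limma, adjusted p = 0.028). That call was lost without cyclophosphamide replicate 1 (limma, adjusted p = 0.077), untreated replicate 1 (0.093) or untreated replicate 3 (0.074). The ratio of Eif1b to Eif1 was 0.0963, 0.0932 and 0.0960 in treated libraries and 0.152, 0.199 and 0.159 in untreated libraries, so that Eif1 made up more of the pair after treatment in all libraries.

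Start codon sites of these mRNAs are shown because eIF1 and eIF5 act at start codons and because the poor site of the eIF1 mRNA is known to take part in the control of eIF1 itself. The sequences run from 9 bases before the start codon to 4 after it, from 1 transcript of each gene in GENCODE M21 (build GRCm38), with the start codon in capitals.
Eif1: tcgtatcgtATGtccg
Eif1b: tagtgtcgcATGtcca
Eif5: taagccaaaATGtctg
Eif4ebp1: gcaggagacATGtcgg
Eef1a1: aaagcaaaaATGggaa
Eef2: tccgccaccATGgtga
A purine 3 bases before the start codon and a G just after it mark a strong site. Of 61 members with such a site in the annotation, 53 had the purine, 34 had the G and 31 had both. Eif1 and Eif1b were among the 5 members with neither, Eif5 and Eif4ebp1 had the purine alone, and Eef1a1 and Eef2 had both.

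The other members of the eIF1 and eIF1A group were split. Eif1a encodes eIF1A, which works beside eIF1 on the scanning subunit, and had 51.2, 52.1 and 48.8 FPKM with cyclophosphamide, against 43.8, 41.8 and 47.1 FPKM untreated (0.20 ± 0.07, limma, adjusted p = 0.028). Its X-linked paralog Eif1ax moved the other way, with 20.2, 17.9 and 17.3 FPKM in treated and 24.7, 25.2 and 25.7 FPKM in untreated libraries (-0.45 ± 0.07, limma, adjusted p = 0.00078). Eif1ad, which encodes a protein with an eIF1A-like domain, rose by 0.48 ± 0.07 on the log2 scale. The ratio of Eif1a to Eif1ax was 2.53, 2.91 and 2.81 in treated and 1.77, 1.65 and 1.83 in untreated libraries, without overlap. The Eif1a call was lost without cyclophosphamide replicate 2, untreated replicate 1 or untreated replicate 2 (limma, adjusted p = 0.074, 0.078 and 0.092), and reads that paralogs share could be split between them.

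Subunits of eIF2, which carries the initiator tRNA, moved unevenly. Eif2s2, the beta subunit, had 47.2, 41.1 and 45.2 FPKM with cyclophosphamide and 29.3, 27.2 and 27.9 FPKM untreated (0.66 ± 0.07, limma, adjusted p = 8.1e-05). Eif2s3x, the X-linked gamma subunit, is the most abundant of the group and had 73.2, 66.7 and 68.9 FPKM with cyclophosphamide, against 58.3, 54.1 and 56.9 FPKM untreated (0.30 ± 0.06, limma, adjusted p = 0.0035). Neither gene overlapped between the groups. Eif2s1, the alpha subunit that stress kinases phosphorylate, had 26.3, 23.7 and 24.3 FPKM with cyclophosphamide and 27.3, 27.8 and 26.7 FPKM untreated, which missed the threshold at -0.14 ± 0.06 on the log2 scale (limma, adjusted p = 0.079). Without cyclophosphamide replicate 1 it was called lower (-0.18, limma, adjusted p = 0.021). The Y-linked copy Eif2s3y had 0 FPKM in every library. Eif2a, which can deliver initiator tRNA without eIF2, rose by 0.34 ± 0.08, and Eif2d, with a related role, stood at 0.18 ± 0.08 (limma, adjusted p = 0.077).

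Of the 5 subunits of eIF2B, the exchange factor that recharges eIF2 with GTP, 4 rose, against 33.1% of all genes tested. Eif2b3, the gamma subunit, rose most, with 5.92, 6.95 and 6.52 FPKM in treated and 3.49, 3.43 and 4.002 FPKM in untreated libraries (0.81 ± 0.10, limma, adjusted p = 0.00023). Eif2b4, Eif2b2 and Eif2b1, which encode the delta, beta and alpha subunits, rose by 0.66 ± 0.08, 0.47 ± 0.10 and 0.46 ± 0.07 on the log2 scale. Eif2b5, the catalytic epsilon subunit and the most abundant of the group, had 29.0, 34.8 and 29.9 FPKM with cyclophosphamide and 28.5, 29.2 and 29.7 FPKM untreated. Its groups overlapped, and it was not called at 0.10 ± 0.08 (limma, adjusted p = 0.31).

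The genes of eIF3, the large scaffold that holds the other factors on the small subunit, rose by unequal amounts. Of 14 genes 10 rose, 0 fell and 4 were not called, while 33.1% of all genes tested rose and 35.8% fell. The median log2 fold change of the 14 genes was 0.40, with a range of -0.16 to 0.82. Eif3a, the largest subunit, rose most. It was the most abundant by mean over all libraries but not in untreated libraries, where Eif3h averaged 120 FPKM, Eif3f 106 FPKM and Eif3a 104 FPKM. Eif3a had 204, 165 and 183 FPKM with cyclophosphamide and 102, 104 and 106 FPKM untreated (0.82 ± 0.09, limma, adjusted p = 0.00010). Eif3f, Eif3e, Eif3i and Eif3g rose by 0.53 to 0.59, and Eif3h, Eif3m and Eif3d by 0.34 to 0.41 on the log2 scale. Eif3b, a core subunit, rose by 0.18 ± 0.07 (limma, adjusted p = 0.049), a call lost when any 1 library was left out (limma, adjusted p = 0.066 to 0.15). Eif3c, its core partner, stood at 0.16 ± 0.07 (limma, adjusted p = 0.067) although its treated libraries all lay above its untreated libraries.

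Eif3k and Eif3l, which form an outer pair of the complex, stood at the other end. Eif3l had 96.6, 76.4 and 81.2 FPKM in treated and 94.4, 90.2 and 94.4 FPKM in untreated libraries, and Eif3k had 49.1, 40.3 and 39.0 FPKM in treated and 47.1, 44.8 and 42.5 FPKM in untreated libraries. In both, cyclophosphamide replicate 1 lay above every untreated library and replicates 2 and 3 below them. Their log2 fold changes were -0.14 ± 0.09 and -0.07 ± 0.10, and without replicate 1 both were called lower at -0.24 and -0.17 (limma, adjusted p = 0.0084 and 0.041). Eif3j1, a loosely bound subunit, rose by 0.67 ± 0.08, with 19.2, 18.5 and 19.4 FPKM with cyclophosphamide, against 12.8, 10.9 and 12.2 FPKM untreated. Its paralog Eif3j2 had 1.28, 1.34 and 1.85 FPKM with cyclophosphamide and 2.06, 1.52 and 1.44 FPKM untreated, with overlap (limma, adjusted p = 0.49), and reads could be split between the pair.

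In the helicase group, which unwinds the leader of the mRNA near the cap, the cofactor gene Eif4b rose. Eif4b had 197, 173 and 178 FPKM with cyclophosphamide and 108, 113 and 107 FPKM untreated (0.74 ± 0.08, limma, adjusted p = 7.2e-05). Eif4a2, a helicase, rose by 0.48 ± 0.12 (limma, adjusted p = 0.0070), with 93.8, 68.3 and 80.2 FPKM with cyclophosphamide, against 59.0, 52.5 and 61.0 FPKM untreated. Eif4a1, the main helicase and the most abundant of the group by mean over all libraries, had 180, 148 and 151 FPKM in treated and 179, 188 and 191 FPKM in untreated libraries. Only treated replicate 1 overlapped the untreated range, and Eif4a1 was not called at -0.22 ± 0.09 (limma, adjusted p = 0.063). It was called lower without that library (-0.31, limma, adjusted p = 0.0030). Eif4a3, a helicase of the exon junction complex, and the cofactor gene Eif4h were not called, with log2 fold changes of 0.08 ± 0.08 and -0.11 ± 0.07. The sign of the Eif4a3 value was negative under upper-quartile scaling. The ratio of Eif4a2 to Eif4a1 was 0.522, 0.461 and 0.531 with cyclophosphamide and 0.330, 0.279 and 0.319 untreated. A processed pseudogene, Eif4a-ps4, stood at 141, 123 and 144 FPKM in treated and 187, 146 and 148 FPKM in untreated libraries. Reads could be split between it and the Eif4a genes, which would touch their levels and ratios and was not tested.

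Among the cap-binding proteins Eif4e3 fell more than any other member. Eif4e3, a variant cap-binding protein, had 1.13, 0.776 and 0.806 FPKM in cyclophosphamide libraries, against 5.40, 5.28 and 5.93 FPKM in untreated libraries (-2.50 ± 0.16, limma, adjusted p = 6.2e-06). Its lowest untreated value was over 4 times its highest treated value. Eif4e, the canonical cap-binding protein, had 25.4, 21.6 and 22.0 FPKM with cyclophosphamide and 20.7, 17.7 and 19.6 FPKM untreated (0.25 ± 0.09, limma, adjusted p = 0.035). This call was lost without cyclophosphamide replicate 1 or 3 or untreated replicate 2 or 3 (limma, adjusted p = 0.083, 0.054, 0.11 and 0.074). Eif4e2, a cap-binding repressor, had 14.5, 13.7 and 13.2 FPKM in treated and 13.1, 15.6 and 13.2 FPKM in untreated libraries, with a log2 fold change of -0.01 ± 0.09 whose sign depended on the scaling. Eif4e3 stood to Eif4e as 0.0447, 0.0359 and 0.0366 in treated and as 0.260, 0.299 and 0.303 in untreated libraries. Eif4e1b, a form known from oocytes, had 7 reads in cyclophosphamide replicate 3 and 0 in the other libraries.

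Of 3 tested genes for proteins that bind and restrain eIF4E, 2 rose and 1 fell, against 33.1% and 35.8% of all genes tested. Eif4ebp1 had the highest log2 fold change of the 60 tested members. Eif4ebp1, the eIF4E-binding protein that mTORC1 inactivates and a known target gene of the stress factor ATF4, had 155, 138 and 125 FPKM with cyclophosphamide and 46.3, 65.7 and 56.3 FPKM untreated (1.32 ± 0.14, limma, adjusted p = 6.5e-05). Eif4enif1, the transporter that carries eIF4E to the nucleus and to processing bodies, had 25.2, 21.5 and 22.7 FPKM with cyclophosphamide, against 10.9, 11.95 and 11.1 FPKM untreated (1.02 ± 0.08, limma, adjusted p = 1.5e-05). In both genes the groups lay far apart. Eif4ebp2, a second eIF4E-binding protein, fell slightly, with 24.7, 25.1 and 25.0 FPKM in treated and 31.3, 31.2 and 30.01 FPKM in untreated libraries (-0.31 ± 0.05, limma, adjusted p = 0.0013). Eif4ebp1 stood at 6.28, 5.49 and 5.00 times Eif4ebp2 with cyclophosphamide and at 1.48, 2.11 and 1.87 times untreated. Against Eif4e itself, Eif4ebp1 stood at 6.11, 6.37 and 5.68 in treated and at 2.23, 3.71 and 2.87 in untreated libraries. Eif4ebp3 was below the filter at 0.163 to 1.17 FPKM in treated and 0.154 to 1.19 FPKM in untreated libraries, and its span overlaps Ankhd1.

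The scaffold genes of the eIF4G group diverged. Eif4g2, which encodes a scaffold without a site for eIF4E, had 165, 154 and 158 FPKM with cyclophosphamide and 138, 129 and 142 FPKM untreated (0.22 ± 0.07, limma, adjusted p = 0.027). Eif4g3 had 10.5, 12.5 and 11.3 FPKM in treated and 15.5, 16.6 and 16.4 FPKM in untreated libraries (-0.50 ± 0.08, limma, adjusted p = 0.00078). Eif4g1, the main scaffold of cap-dependent initiation, had 82.4, 84.7 and 83.7 FPKM with cyclophosphamide, against 89.5, 96.1 and 94.5 FPKM untreated (-0.16 ± 0.06, limma, adjusted p = 0.048). The Eif4g1 call was lost when any 1 library was left out (limma, adjusted p = 0.051 to 0.15), and that of Eif4g2 without cyclophosphamide replicate 3 or untreated replicate 1 or 2 (0.070, 0.063 and 0.091). The ratio of Eif4g2 to Eif4g1 was 2.00, 1.82 and 1.88 in treated and 1.54, 1.34 and 1.51 in untreated libraries. Eif4g3 spans 215 kb, the longest of the members.

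All 3 genes of the eIF5, eIF5B and eIF6 group rose, against 33.1% of all genes tested. Eif5, which triggers GTP hydrolysis on eIF2 at the start codon, had 114, 109 and 114 FPKM with cyclophosphamide and 60.4, 55.0 and 61.8 FPKM untreated (0.93 ± 0.07, limma, adjusted p = 1.3e-05). Eif5b, the GTPase that joins the large subunit, rose by 0.57 ± 0.08 (limma, adjusted p = 0.00031). Eif6, which keeps free large subunits apart from small ones, rose by 0.29 ± 0.09 (limma, adjusted p = 0.018), a call lost without cyclophosphamide replicate 2, untreated replicate 1 or untreated replicate 3 (limma, adjusted p = 0.054, 0.065 and 0.064).

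Both eIF5A genes fell, as did 35.8% of all genes tested. Eif5a, the hypusine-bearing factor that relieves stalled ribosomes, had 192, 182 and 171 FPKM in cyclophosphamide libraries, against 229, 258 and 240 FPKM in untreated libraries (-0.42 ± 0.09, limma, adjusted p = 0.0031). Eif5a2, its low-abundance paralog, had 3.44, 3.47 and 3.72 FPKM with cyclophosphamide and 6.88, 6.20 and 7.43 FPKM untreated (-0.92 ± 0.10, limma, adjusted p = 8.2e-05). Groups did not overlap in either gene, and the ratio of Eif5a2 to Eif5a was lower in each treated library (0.0180, 0.0191 and 0.0218) than in each untreated library (0.0301, 0.0240 and 0.0310).

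The elongation factor transcripts Eef1a1 and Eef2 were the most abundant of the members and took a larger share of the summed FPKM after treatment. Eef1a1, which delivers aminoacyl-tRNA to the ribosome, had 4547, 3920 and 3966 FPKM with cyclophosphamide and 2818, 2695 and 2735 FPKM untreated. All treated libraries were higher, with a mean of 4144 ± 350 FPKM in treated and 2750 ± 62.5 FPKM in untreated libraries (SD, n = 3 each). The log2 fold change was 0.59 ± 0.28 and missed the threshold (limma, adjusted p = 0.095). This SE comes from a mean-variance trend that is wide for the most abundant genes, and with no trend the adjusted p was 0.0012 in limma. Over the 17 alternatives the limma adjusted p ranged from 1.6e-05 (limma-voom on recovered reads) to 0.32 (replicate number as a block), with 0.013 without cyclophosphamide replicate 1. Eef2, the translocase that moves the ribosome by a codon, had 1544, 1357 and 1367 FPKM with cyclophosphamide and 1019, 1054 and 1028 FPKM untreated (0.46 ± 0.16, limma, adjusted p = 0.034). Its call was lost without any 1 library other than cyclophosphamide replicate 1 (limma, adjusted p = 0.061 to 0.12). The 64 members together held 3.36%, 3.16% and 3.21% of the summed FPKM in treated and 2.43%, 2.40% and 2.40% in untreated libraries. Without Eef1a1 and Eef2 the other 62 genes held 1.33%, 1.27% and 1.28% with cyclophosphamide and 1.03%, 1.05% and 1.05% untreated.

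The exchange complex that recharges eEF1A rose as well. Eef1g had 348, 313 and 314 FPKM in treated and 222, 226 and 227 FPKM in untreated libraries (0.53 ± 0.09, limma, adjusted p = 0.00082). Eef1b2, the exchange subunit, rose by 0.44 ± 0.10 (limma, adjusted p = 0.0054). Eef1d rose by 0.23 ± 0.07 (limma, adjusted p = 0.023), a call lost without cyclophosphamide replicate 1 or 3 or untreated replicate 3 (limma, adjusted p = 0.051, 0.064 and 0.090). Eef1e1, which encodes a protein of the aminoacyl-tRNA synthetase complex, rose most of the group, with 18.9, 17.5 and 17.97 FPKM with cyclophosphamide, against 9.69, 10.0 and 9.37 FPKM untreated (0.90 ± 0.06, limma, adjusted p = 1.1e-05). Eef1a2, the form known from neurons and muscle, was below the filter at 0 to 0.107 FPKM with cyclophosphamide and 0 to 0.0881 FPKM untreated.

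Genes whose products modify the elongation factors fell or were not called. Eef1akmt1, a lysine methyltransferase of eEF1A, had 8.66, 8.48 and 7.27 FPKM with cyclophosphamide and 15.1, 15.6 and 20.1 FPKM untreated (-1.04 ± 0.12, limma, adjusted p = 0.00014). Eef2k, the kinase that inactivates eEF2, had 4.07, 4.53 and 4.09 FPKM in treated and 6.28, 6.81 and 6.76 FPKM in untreated libraries (-0.63 ± 0.09, limma, adjusted p = 0.00036). Both genes were lower in every treated library. Eef1akmt4 fell too (-0.52 ± 0.17, limma, adjusted p = 0.026), a call lost without cyclophosphamide replicate 3, untreated replicate 2 or untreated replicate 3 (limma, adjusted p = 0.085, 0.058 and 0.097). Eef1akmt2, Eef1akmt3 and Eef2kmt, also methyltransferase genes, had overlapping groups and log2 fold changes of -0.09 ± 0.12, -0.27 ± 0.29 and 0.28 ± 0.12. Without cyclophosphamide replicate 1 the Eef1akmt2 value was 0.02 and Eef2kmt was called higher (0.38, limma, adjusted p = 0.016), and without untreated replicate 1 Eef1akmt3 was called lower (-0.59, limma, adjusted p = 0.039).

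**Figure D3:**
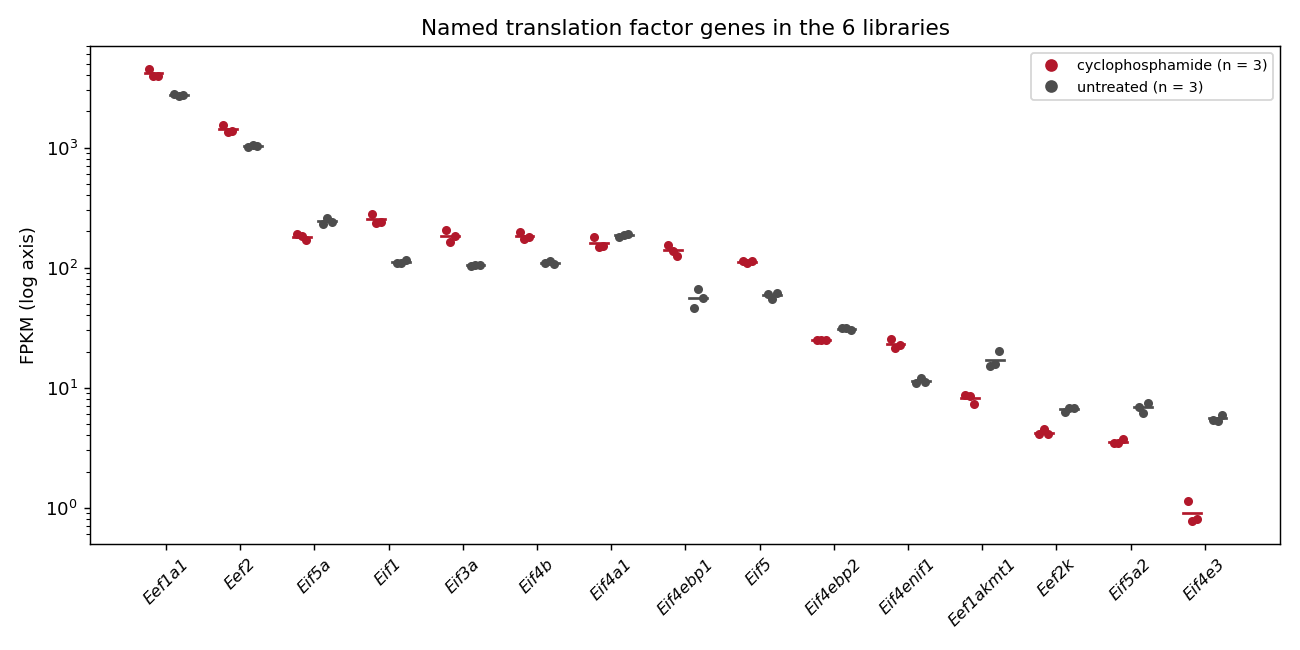
FPKM on a log axis of 15 factor genes in the 3 cyclophosphamide libraries (red, left of each pair) and the 3 untreated libraries (grey, right), with a bar at each mean. Eif1, Eif4ebp1, Eif5 and Eif4enif1 lie higher in every treated library, and Eif5a, Eif5a2, Eef1akmt1, Eef2k and Eif4e3 lie lower in every treated library.

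Ratios between related genes within a library do not depend on how libraries were scaled. Of 15 pairs listed 13 had both genes measured, and in 12 of them the ratios of the groups did not overlap, 6 higher and 6 lower with cyclophosphamide. Among single genes tested, groups did not overlap in 35.3% (higher) and 37.8% (lower), no such share was computed for pairs of other genes, and the pairs were chosen with earlier results known, so the count says nothing particular to these pairs. The largest differences in the log2 ratio were -2.75 for Eif4e3 to Eif4e, 1.63 for Eif4ebp1 to Eif4ebp2, -1.09 for Eef2k to Eef2 and 1.07 for Eif4ebp1 to Eif4e. Each of the 12 pairs gave p = 0.10 in a two-sided exact permutation test of 3 against 3 libraries, the smallest value that design allows, and 0.11 after adjustment over 13 pairs. The pair that overlapped was Eif4e2 to Eif4e, with an exact permutation p of 0.20.

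**Figure D4:**
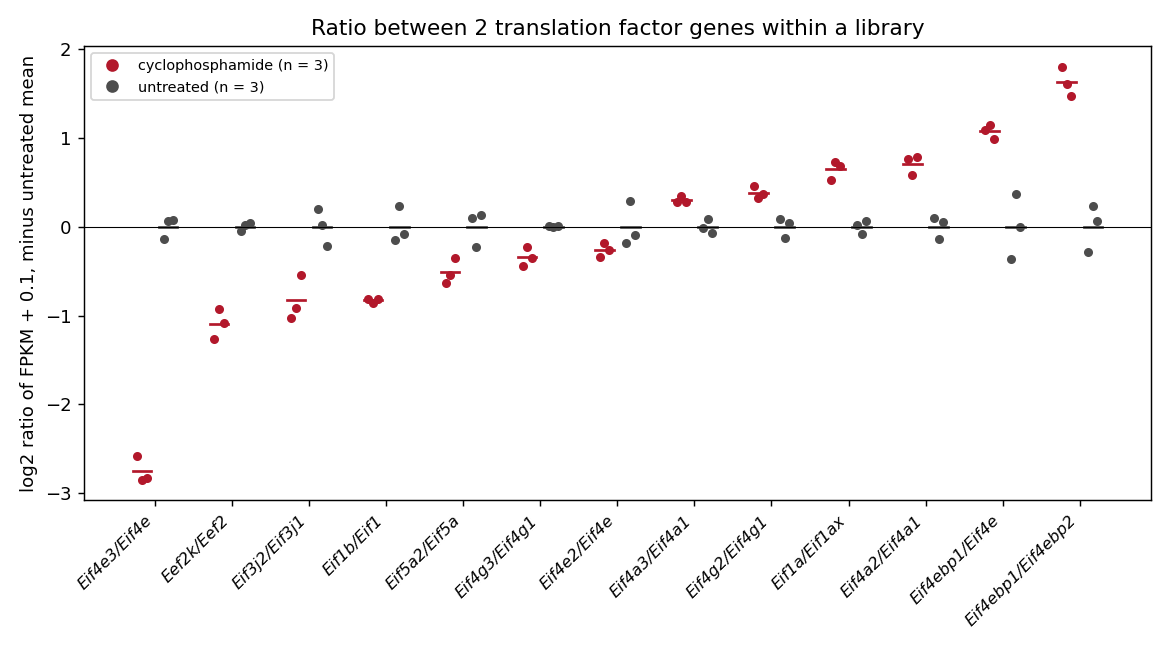
Log2 ratio of FPKM + 0.1 between 2 factor genes in each library, minus the mean of the 3 untreated libraries (red, cyclophosphamide, left of each pair; grey, untreated, right; bars, means). In 12 of 13 pairs the groups do not overlap, from -2.75 for Eif4e3 to Eif4e up to 1.63 for Eif4ebp1 to Eif4ebp2.

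Members were also described by features that the rule did not use. Many elongation factor mRNAs, and those of Eif3e, Eif3f, Eif3h and Eif4b, are known from work in human and rodent cells as TOP mRNAs, which start with a pyrimidine tract and whose translation follows mTORC1. Of 10 such members 9 were measured, 8 rose and 0 fell, while 33.1% of all genes tested rose and 35.8% fell. Their median log2 fold change was 0.53, with a range of 0.23 to 0.74. Eef1a1 was the member not called. Among the other 51 tested members 27 rose and 10 fell, with a median of 0.22. Members over 100 FPKM had a median log2 fold change of 0.46 (n = 13), those of 10 to 100 FPKM one of 0.34 (n = 37) and those under 10 FPKM one of -0.22 (n = 10). Several TOP members, among them Eef1a1, Eif3f, Eif3h and Eif4b, were also over 100 FPKM, and TOP status and abundance were not told apart. Across the 60 members the rank correlation of log2 fold change with mean FPKM was 0.32, against 0.15 over all 14885 genes, and with genomic span it was -0.12, as descriptions of genes that share the same libraries.

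Promoter stretches are shown for genes of TOP mRNAs and for members with a CACGTG motif, the E-box bound by MYC and related factors. Beside them stands Eif1, the initiation gene outside the eIF4E inhibitors that rose most. For Eif1 no CACGTG was found, and no pyrimidine tract at its annotated start. Sequences are from RefSeq (build GRCm38.p6), from 75 bases before to 15 bases from the annotated start on. Capitals mark a pyrimidine tract at the annotated start and any CACGTG. For Eif4e the annotated start shown was chosen from several because its stretch holds CACGTG. Whether a marked tract, as in Eef1a1 and Eif3f, opens the mRNA made in these cells was not tested. A tract at a start other than the annotated one would be missed, in Eif1 and Eef2 too.
Eef1a1, chr9:78481710-78481799, minus strand: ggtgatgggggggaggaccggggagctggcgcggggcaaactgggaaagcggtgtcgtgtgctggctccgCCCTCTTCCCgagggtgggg
Eif3f, chr7:108934340-108934429, plus strand: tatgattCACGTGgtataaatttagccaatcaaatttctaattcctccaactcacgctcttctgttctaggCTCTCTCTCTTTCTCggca
Eef2, chr10:81176556-81176645, plus strand: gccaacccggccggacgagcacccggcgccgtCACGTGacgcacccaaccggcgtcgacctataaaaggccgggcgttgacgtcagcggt
Eif4e, chr3:138527193-138527282, plus strand: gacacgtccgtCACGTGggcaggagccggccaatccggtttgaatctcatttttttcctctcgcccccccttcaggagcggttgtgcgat
Eif1, chr11:100319874-100319963, plus strand: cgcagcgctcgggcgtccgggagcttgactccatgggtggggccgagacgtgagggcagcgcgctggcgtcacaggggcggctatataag
Of 64 members 48 had a promoter in the table, which runs from 250 bases before to 50 after each annotated start. The 16 members without an entry, in which no motif was searched, were Eef1akmt1, Eef1akmt3, Eef1d, Eef1g, Eif1a, Eif2b3, Eif3e, Eif3h, Eif3i, Eif3j2, Eif4e1b, Eif4e3, Eif4ebp1, Eif4ebp3, Eif4g2 and Eif6. CACGTG, which reads the same on both strands, was found for 13 of 48 members (27.1%), against 8.09% of 27025 genes and 11.8% of 10022 protein-coding genes that were tested here. Of these 13 members 5 rose and 5 fell, while 33.1% of all genes tested rose and 35.8% fell. The motif TGATGNAA, read on both strands as a core of sites for ATF4 with C/EBP partners, was found for 2 of 48 members (4.17%), Eif2s3x and Eef2k, against 4.51% of all genes and 2.70% of the tested protein-coding genes. A pyrimidine tract of at least 5 bases that begins with C within 5 bases of the annotated start was found for 11 of 48 members (22.9%), against 21.2% of all genes and 23.7% of the tested protein-coding genes, and annotated starts may differ from those used in these cells. Among members with an entry, Eef1a1 and Eif3f had this tract, and Eef2, Eef1b2 and Eif4b did not. Genes with several annotated starts count as holding a motif when any start does.

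Other genes of translation outside the naming rule moved in both directions, while 33.1% of all genes tested rose and 35.8% fell. Of 9 genes of poly(A)-binding proteins and their partners 7 rose and 0 fell, with a median log2 fold change of 0.66. Pabpc4, a cytoplasmic poly(A)-binding protein, rose most, at 150 ± 4.28 FPKM in treated and 58.0 ± 3.83 FPKM in untreated libraries (SD, n = 3; log2 fold change 1.37 ± 0.07). Of 10 genes of termination and ribosome recycling 5 rose, with the rescue factor gene Hbs1l at 1.14 ± 0.08. Another 2 fell, with Mcts2 near the threshold at -0.19 ± 0.07 (limma, adjusted p = 0.041). Of 9 regulators of eIF4E and eIF4A 5 rose, with Gigyf1, a partner of Eif4e2, at 0.91 ± 0.09, and Cyfip1, an eIF4E-binding partner of FMRP, fell (-1.18 ± 0.07).

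The lists of protein modification and of specialised decoding were mixed. Of 8 genes of hypusine synthesis, which modifies eIF5A, and diphthamide synthesis, which modifies eEF2, 4 rose, with Dph1 at 0.68 ± 0.13, and 3 fell, with Dph6 at -1.15 ± 0.18. Dhps, which makes the first step to hypusine and was picked after its value was seen, was among those that fell (-0.28 ± 0.08). Dohh, the other hypusine gene of the list, was not called (-0.05 ± 0.16, limma, adjusted p = 0.81). Of 9 mitochondrial translation factors 4 rose, with Mtrf1, a release factor gene, at 0.85 ± 0.10. Mtrf1l fell, near the threshold (-0.48 ± 0.18, limma, adjusted p = 0.040). The mitochondrial elongation factor gene Tufm, also picked afterwards, was not called (0.12 ± 0.09, limma, adjusted p = 0.27). Of 5 genes of selenocysteine decoding 3 rose, with Sephs2 at 0.72 ± 0.09. Eefsec, the elongation factor for selenocysteine, fell, near the threshold (-0.37 ± 0.14, limma, adjusted p = 0.041). The medians of the last 5 lists were 0.22, 0.34, 0.12, 0.12 and 0.44 in the order given, against -0.02 over all genes. The counts of these short lists stand beside 33.1% higher and 35.8% lower over all genes tested, and no list was tested as a set.

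By the coordinates deposited, taken as GRCm38, Eif1 (ENSMUSG00000035530) lies on chromosome 11 from 100319885 to 100322096 and Eif4ebp1 (ENSMUSG00000031490) on chromosome 8 from 27260329 to 27276674. Eif4e3 (ENSMUSG00000093661) lies on chromosome 6 from 99625135 to 99666771 and Eef1a1 (ENSMUSG00000037742) on chromosome 9 from 78478449 to 78489151. The span of 15 of 64 members overlaps another gene with at least 100 reads, among them Eif4enif1 with Drg1, Eif4a2 with Rfc4 and Eif3j1 with Spg11, and the strand setting of the counting is not stated, so their reads cannot be told apart.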

How the data were processed

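The authors deposited FPKM values, reads divided by gene length and library size, in 1 table with 6 value columns per the file headers, although the table is named as raw counts. They are not whole numbers and become whole reads, within 0.01 of a read for 100% of values, when multiplied by the gene length in the table and divided by 1 step per library. HISAT2 2.0.5, CASAVA and the build GRCm39 are named, per the submitters' processing notes, while no source used here gives the counting tool, strand setting or annotation. Of 54409 gene IDs shared with GENCODE M21 (GRCm38), 98.3% had an equal start and end, so coordinates are read as GRCm38. The implied library size was 0.975 to 1.04 times the recovered reads.

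Genes with at least 10 reads in 3 libraries and 15 in all (14885, holding 99.9% of reads) went into a two-sided limma test (3.58.1, R 4.3.3) of log2(FPKM + 0.1) with trended empirical Bayes variances, with p-values adjusted over all of them by Benjamini-Hochberg, at an adjusted p under 0.05. The log scale with this pseudocount understates the change of low genes. The fit was tried on simulated reads in which only a small part of the genes changed. That trial cannot vouch for calls or scaling where most genes are called, as here. Ratios of pairs were tested by exact permutation in scipy version 1.17.1. The text gives, per complex, the most abundant member, the called members with the largest rise and fall, and both genes of listed pairs; other members were added after their values were seen. Members, complexes, pairs and lists were chosen with earlier results of these data known. The alternatives tried were a block for the replicate number, other pseudocounts (0.5 and 1), scalings and filters (none, or a mean of at least 1 CPM), no trend, limma-voom on recovered reads and leaving out each library. No per-sample column was left unused.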

Additional observations from a re-analysis of the deposited data

How the results depend on the processing

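Of 45 called members 35 kept their call, 27 higher and 8 lower, in all 17 alternatives, and 10 lost it in at least 1 (Eef1akmt4, Eef1d, Eef2, Eif1a, Eif1b, Eif3b, Eif4e, Eif4g1, Eif4g2 and Eif6). No called member changed sign in any of them. Counts ranged from 28 higher with upper-quartile scaling to 39 with limma-voom on recovered reads, and from 8 lower to 14 with upper-quartile scaling. Leaving out each library gave 29 to 33 higher, 8 to 13 lower and 9347 to 10141 of all genes called, against 10257. Of uncalled members, Eif4e2 (-0.01) changed sign with median-of-ratios scaling (0.0083), total-read scaling (0.032) and limma-voom (0.0074), and without cyclophosphamide replicate 3 (0.016) or untreated replicate 2 (0.065). Over libraries left out it ranged from -0.058 to 0.065. Eif4a3 (0.08) changed sign with upper-quartile scaling (-0.0060), and Eef1akmt2 (-0.09) without cyclophosphamide replicate 1, with a range over libraries left out of -0.19 to 0.021. The cause was not tested.

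With the replicate number as a block 30 members rose and 8 fell, and 9937 of all genes were called. Deviations of same-numbered libraries correlated at -0.080, 0.0046 and -0.033, so no deviation shared by number was seen. These correlations cannot show whether same-numbered libraries came from the same preparation. Scaling to an equal FPKM sum, an alternative chosen after the data were seen, gave 35 higher and 12 lower. The number of libraries, 3 a group, limits what the tests can resolve, and members near the threshold are listed above.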
